A study of Mus musculus with 7 samples.

Results

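The 5 libraries labelled day 7 in an RNA sequencing series of mouse CD4 T cells did not look alike: libraries 5 and 6 stood together on one side and libraries 1, 2 and 3 on the other for many genes. This split was chosen from the measured values, and no label names it. All 5 day 7 libraries, of 7 libraries in all, are described here gene by gene, with the 2 day 0 libraries as reference. Because the values chose the sets, every value that compares them is a description, with no test.

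CD4 T cells had been sorted from tumours of a mouse model in which hepatocellular carcinoma, the main liver cancer, is transplanted into the liver. The 5 day 7 libraries came from mice whose model had been set up 7 days before, and the 2 day 0 libraries from mice at 0 days. The labels name no genotype, strain, age, sex, tumour line or drug for either group, and do not say which tissue was sampled as tumour on day 0. They tie no column of the count table to a single sample title, so libraries are named by the last digit of their column, day 7 libraries 5, 6, 1, 2 and 3 and day 0 libraries 2 and 3. Whether libraries 5 and 6 were sorted, prepared or sequenced apart from the others is not given in the sources used here. "Libraries 5 and 6" and "libraries 1, 2 and 3" mean day 7 libraries throughout.

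CD4 T cells are helper lymphocytes that recognise peptides on MHC class II through their receptor. A signal through that receptor switches on immediate early genes such as Fos, Egr1 and Nr4a1 without new protein synthesis, and repeated signals in tumours raise inhibitory receptors such as PD-1. Type I interferon acts through a separate receptor and transcription factors that bind the interferon-stimulated response element (ISRE) in the promoters of antiviral genes. Cd8a belongs to the other main T cell lineage, Lyz2 to macrophages and granulocytes, and Alb to hepatocytes, so these genes mark RNA of cells that a sort for CD4 T cells is meant to leave out.

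The split is marked by 6 genes, 3 of other cells and 3 of T cell state. Cd8a, which encodes the alpha chain of the CD8 coreceptor, was at 132 and 90.8 CPM (counts scaled to a common library size) in libraries 5 and 6, against 5.76, 12.1 and 8.24 CPM in libraries 1, 2 and 3, and at 3.37 and 0.178 CPM on day 0. Lyz2, a lysozyme of macrophages, was at 146 and 67.4 CPM in libraries 5 and 6, against 0.0370, 6.63 and 6.66 CPM in libraries 1, 2 and 3, and at 0 and 3.82 CPM on day 0. Alb, which encodes albumin, went the other way, with 0.760 and 0 CPM in libraries 5 and 6 and 33.6, 23.3 and 28.3 CPM in libraries 1, 2 and 3, beside 7.15 and 1.86 CPM on day 0. For these 3 genes of other cells the sets did not overlap, and for Cd8a and Lyz2 the day 0 libraries lay with, or below, libraries 1, 2 and 3.

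Pdcd1, which encodes the inhibitory receptor PD-1, was at 149 and 184 CPM in libraries 5 and 6, against 43.1, 6.11 and 34.2 CPM in libraries 1, 2 and 3, and at 4.20 and 10.1 CPM on day 0. Ifit3, an antiviral protein induced by interferon, was at 18.9 and 18.8 CPM in libraries 5 and 6, against 151, 112 and 94.6 CPM in libraries 1, 2 and 3, and at 25.2 and 37.6 CPM on day 0. Hspa1a, an inducible HSP70 chaperone, was at 448 and 494 CPM in libraries 5 and 6, against 48.1, 91.5 and 93.5 CPM in libraries 1, 2 and 3, and at 240 and 299 CPM on day 0. Day 0 therefore lay near library 2 and below libraries 1 and 3 for Pdcd1, nearer to libraries 5 and 6 for Ifit3, and between the sets for Hspa1a.

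The T cell identity of all 7 libraries was checked with Cd4 and Cd3e. Cd4, the coreceptor used for the sort, was at 912 and 935 CPM in libraries 5 and 6, against 474, 591 and 519 CPM in libraries 1, 2 and 3, and at 387 and 402 CPM on day 0. Cd3e, a chain of the T cell receptor complex, was at 563 and 508 CPM in libraries 5 and 6, against 499, 571 and 500 CPM in libraries 1, 2 and 3, and at 488 and 645 CPM on day 0. The sets overlapped for Cd3e and did not for Cd4, which was highest where Cd8a was also highest. In bulk samples, fewer cells of a type and less RNA per cell cannot be told apart.

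**Figure D1:**
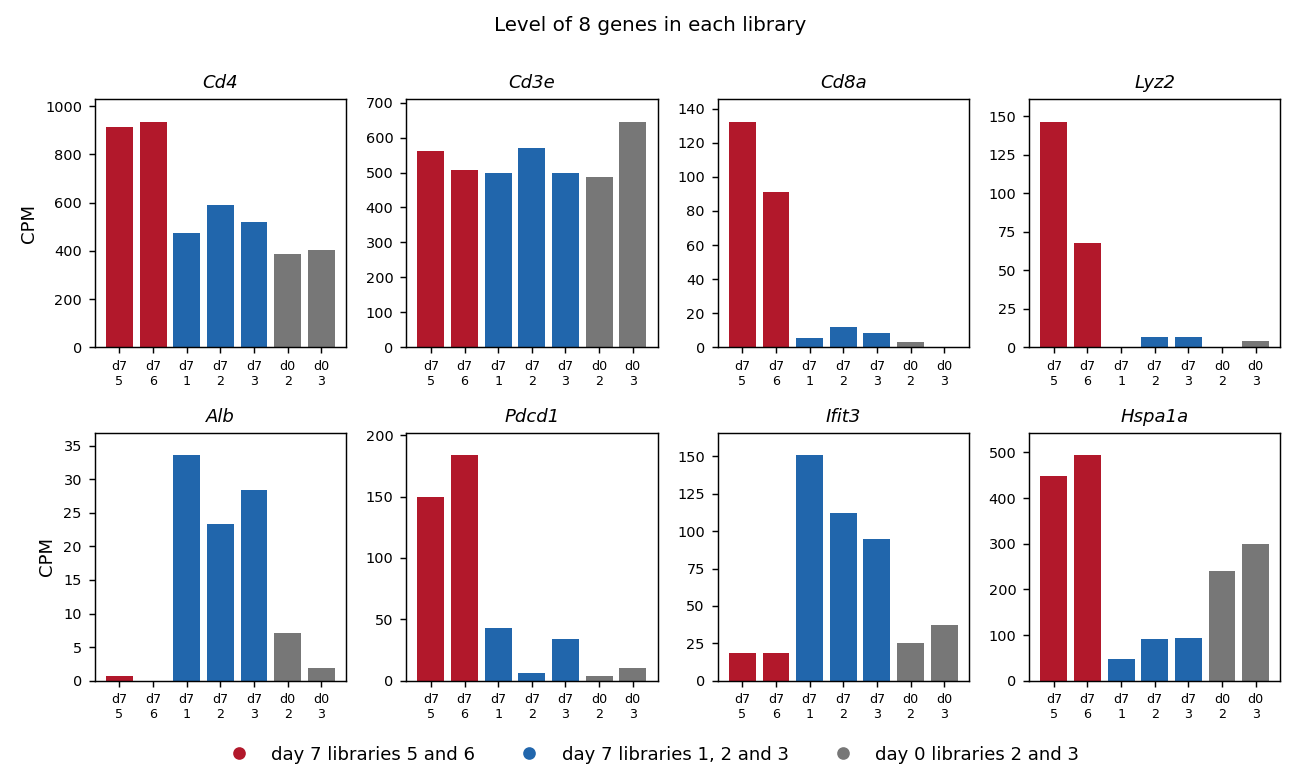
CPM of 8 genes in each library, with day 7 (d7) libraries 5 and 6 in red, day 7 libraries 1, 2 and 3 in blue and day 0 (d0) libraries 2 and 3 in grey; each panel has its own axis from 0. Cd8a, Lyz2, Pdcd1 and Hspa1a are highest in libraries 5 and 6, Alb and Ifit3 in libraries 1, 2 and 3, and Cd3e overlaps between the sets.

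Total counts overlapped between the sets. They were 26401562 and 21910818 in libraries 5 and 6 and from 23256157 to 26955367 in libraries 1, 2 and 3, beside 24351820 and 28333855 on day 0, and TMM scaling factors ran from 0.988 to 1.01. The 13 mitochondrial genes took 2.27% and 2.08% of the counts in libraries 5 and 6 and from 2.51% to 2.58% in libraries 1, 2 and 3, beside 2.51% and 2.49% on day 0. Non-coding genes took 1.12% and 1.18% of the counts in libraries 5 and 6 and from 0.973% to 1.06% in libraries 1, 2 and 3. The part of these shares in any gene's difference was not tested. Even values made up 72.4% to 78.1% of counts between 2 and 200, depending on the library, so a low count may stand for fewer fragments than it shows. Xist, which is expressed in female cells, did not exceed 1.39 CPM in any of the 7 libraries.

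Across the 12929 genes that passed a filter on low counts, of 15588 in the table, Spearman's rho was 0.934 between libraries 5 and 6 and from 0.933 to 0.941 within libraries 1, 2 and 3. Between the sets it was from 0.914 to 0.931. The pair of library 5 and library 2 had the highest of these 6 values and came close to the values within a set. By rho, library 5 was nearer to library 6. By Pearson's r of log2(CPM + 1) it was slightly nearer to library 2 (0.9055) than to library 6 (0.9047). Against day 0, rho was from 0.902 to 0.916 for libraries 5 and 6 and from 0.922 to 0.930 for libraries 1, 2 and 3. These values are across genes, which share libraries and are not independent replicates.

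**Figure D2:**
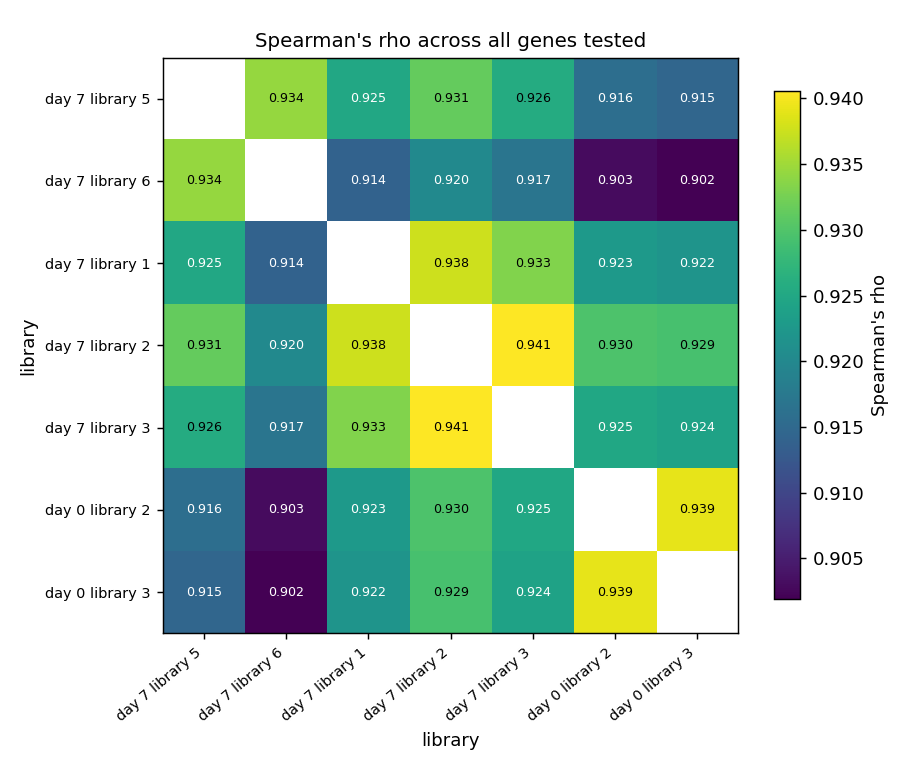
Spearman's rho across the 12929 genes tested for each pair of libraries, with libraries on both axes and darker cells for lower values. Libraries 5 and 6 share 0.934 with each other and have their lowest values, 0.902 to 0.916, with the day 0 libraries.

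Single genes differed widely even inside a set. Of 9792 genes with a mean of at least 5 CPM, 1518 were at least 2-fold apart between libraries 5 and 6, from 1468 to 1663 were so within libraries 1, 2 and 3, and from 1588 to 2052 between the sets. Genes at 0 in one library and at 5 CPM or more in the other numbered 403 between libraries 5 and 6, from 332 to 421 within libraries 1, 2 and 3, and from 364 to 580 between the sets. The 364 came from library 5 and library 2, fewer than the 403 between libraries 5 and 6. A 2-fold difference in a single gene was therefore about as frequent between 2 libraries of one set as between the sets for some pairs.

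A gene is called higher in libraries 5 and 6 where both lay above all of libraries 1, 2 and 3 and the mean log2(CPM + 1) differed by at least 1 (2-fold), and lower where the reverse held. On this scale the difference of a gene with few counts is understated. By that rule 782 genes were higher (6.05% of those tested; 626 protein-coding and 156 non-coding) and 483 were lower (3.74%; 428 protein-coding and 55 non-coding). These shares are the background for every count of list members past 2-fold given below. Without the fold, 14.5% of genes did not overlap in the higher direction and 12.8% in the lower one, and the median difference over all genes was 0.0189. Those 2 shares are the background for counts of list members with no overlap. Any split of the 5 libraries into 2 and 3 leaves some genes without overlap. Other splits were not counted, so these shares do not measure how distinct the sets were. Just inside the 2-fold line lay Tonsl, a DNA repair protein, with a difference of 1.003, and just outside it Ppp1r15a, a stress-response phosphatase subunit, with 0.997. On the lower side Parl, a mitochondrial protease, lay just inside with -1.001 and Cgas, the sensor of cytosolic DNA, just outside with -0.993.

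**Figure D3:**
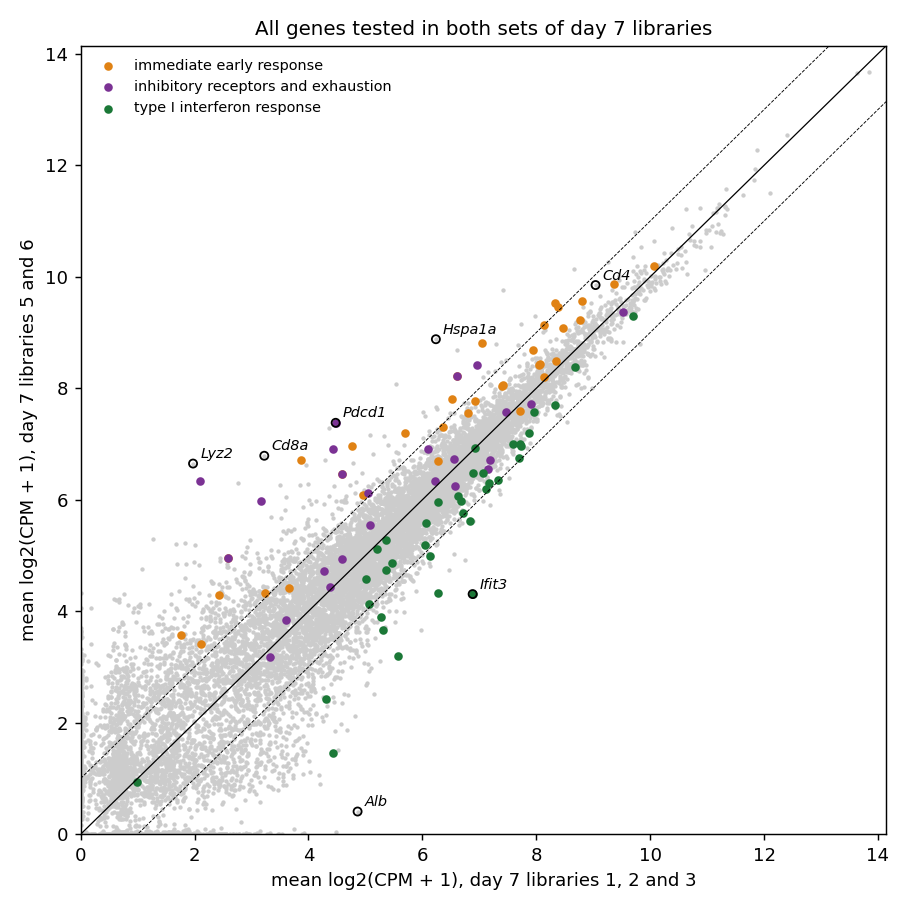
Mean log2(CPM + 1) of every gene tested in libraries 5 and 6 (vertical axis) against libraries 1, 2 and 3 (horizontal axis), with the line of equality solid, 2-fold lines dashed, 3 gene lists in colour and 7 genes circled. Immediate early and inhibitory receptor genes lie mostly above the line, and type I interferon genes lie on or below it.

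Day 0 divided the higher genes unevenly. Among the 205 higher genes with at least 20 CPM in both libraries 5 and 6, both day 0 libraries lay below libraries 5 and 6, with at least 1 of them within or below the range of libraries 1, 2 and 3, for 147 genes. For 24 genes they lay above libraries 1, 2 and 3 with at least 1 within or above the range of libraries 5 and 6, for 21 genes they lay between the sets, and 13 genes were mixed. Among the 112 lower genes with at least 20 CPM in each of libraries 1, 2 and 3, day 0 lay on the side of libraries 1, 2 and 3 for 56 genes, on the side of libraries 5 and 6 for 23, between the sets for 27, and 6 were mixed. Neither set was thus the one that resembled day 0 for all genes. These genes were chosen by the difference between the day 7 sets, with the CPM minimum applied to the higher set alone. That choice can itself favour a side for day 0, so the counts are a description of the chosen genes.

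The type I interferon response is described first, with the promoters of 5 of its genes, since its members stood nearly all one way. The 140 bases before the start site are shown from RefSeq on GRCm38.p6, 5′ to 3′ along the gene, with each match to the ISRE in capitals (GAAA, any 2 bases and GAAA, or TTTC, any 2 bases and TTTC on the other strand). Ifit3, Rsad2 and Ifit1 are shown as the list members with the largest differences among those with at least 20 CPM in each of libraries 1, 2 and 3, and Phf11b and Oas1a as members that carried the same motif and hardly differed.
Ifit3, chr19:34583389-34583528, plus strand: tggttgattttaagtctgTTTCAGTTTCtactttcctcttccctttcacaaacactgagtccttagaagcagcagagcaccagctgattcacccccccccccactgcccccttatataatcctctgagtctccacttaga
Ifit1, chr19:34640749-34640888, plus strand: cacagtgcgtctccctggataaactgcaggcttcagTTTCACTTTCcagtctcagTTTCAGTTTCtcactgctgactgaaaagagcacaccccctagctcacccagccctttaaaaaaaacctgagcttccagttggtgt
Rsad2, chr12:26456453-26456592, minus strand: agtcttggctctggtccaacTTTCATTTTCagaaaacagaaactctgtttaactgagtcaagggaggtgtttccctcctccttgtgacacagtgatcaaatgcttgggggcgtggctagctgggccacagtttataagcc
Phf11b, chr14:59341331-59341470, minus strand: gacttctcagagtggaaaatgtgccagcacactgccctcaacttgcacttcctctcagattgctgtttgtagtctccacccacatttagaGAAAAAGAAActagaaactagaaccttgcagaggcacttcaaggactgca
Oas1a, chr5:120907526-120907665, minus strand: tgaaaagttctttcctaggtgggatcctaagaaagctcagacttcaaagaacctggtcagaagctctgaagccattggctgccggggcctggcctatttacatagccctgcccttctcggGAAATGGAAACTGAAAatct

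The match in Ifit3 started 122 bases before the start site, those in Ifit1 104 and 85 bases, and that in Rsad2 120 bases. In Phf11b it started 50 bases before, and in Oas1a 2 overlapping matches started 20 and 14 bases before. In the window from 250 bases before to 50 after the start site, 18 of the 29 list members with a promoter entry held a match (62.1%), against 394 of 10295 tested genes (3.83%). The 18 members with a match differed by a median of -0.82, from -2.98 to 0.00 on the log2(CPM + 1) scale, and the 11 without one by a median of -0.62, from -1.88 to -0.06. The motif was therefore held at both ends. Ifit3 (-2.57), Rsad2 (-2.37) and Ifit1 (-1.93) held a match and differed by more than any of the 11 without one. Phf11b and Oas1a held a match and hardly differed. A match is a description of letters and not of binding.
All but 1 of the 37 tested members of the type I interferon list had a negative difference, with a median of -0.69, and the remaining one, Phf11b, was at 0.00. The sets did not overlap for 27 members, all lower in libraries 5 and 6, beside 12.8% of all genes tested. Of these 27, 8 were past 2-fold: Ifit3b, Ifit3, Rsad2, Ifit1, Oasl1, Oasl2, Rtp4 and Bst2. Ifit1, which binds foreign RNA, was at 17.6 and 20.9 CPM in libraries 5 and 6, against 85.9, 63.0 and 81.2 CPM in libraries 1, 2 and 3, and at 35.2 and 26.9 CPM on day 0. Rsad2, which encodes viperin, was at 11.8 and 5.60 CPM in libraries 5 and 6, against 47.4, 66.4 and 32.2 CPM in libraries 1, 2 and 3, and at 14.8 and 23.4 CPM on day 0. In both genes libraries 5 and 6 lay below day 0 and libraries 1, 2 and 3 above it.

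Rtp4, another interferon-induced gene, was at 49.4 and 46.5 CPM in libraries 5 and 6, against 120, 110 and 111 CPM in libraries 1, 2 and 3, and at 70.4 and 46.02 CPM on day 0. Oasl2, an oligoadenylate synthetase-like protein, was at 8.54 and 15.6 CPM in libraries 5 and 6, against 42.9, 33.1 and 40.5 CPM in libraries 1, 2 and 3, and at 13.8 and 4.53 CPM on day 0. Transcription factors of the pathway differed by less: Irf7 by -0.87, Irf9 by -0.58 and Stat2 by -0.56, each with no overlap. Ifit3b shares near-identical sequence with Ifit3, so the counts of these copies are uncertain.

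Over the list, the mean log2(CPM + 1) was 5.62 and 5.44 in libraries 5 and 6, against 6.42, 6.48 and 6.37 in libraries 1, 2 and 3, and 5.49 and 5.51 on day 0. Library 5 lay just above and library 6 just below day 0, and libraries 1, 2 and 3 lay above all 4. Among 29 genes of the interferon gamma response (GTPases of the GBP and IRG families, the MHC class I pathway, and some transcription factors, chemokines and a signalling inhibitor), 3 were past 2-fold and all were lower: Iigp1, Cxcl10 and Tgtp1. Iigp1, an IRG GTPase, was at 40.9 and 21.1 CPM in libraries 5 and 6, against 98.7, 95.2 and 128 CPM in libraries 1, 2 and 3, and at 35.3 and 49.7 CPM on day 0. MHC class I genes were level, with H2-D1 at a difference of 0.06, H2-K1 at -0.07 and B2m at -0.15, and Ifng itself was 0.85 higher in libraries 5 and 6 with no overlap. The interferon-induced transmembrane genes Ifitm1 and Ifitm2, which are not in either list, stood the other way and are given below. GBP and Tgtp genes have close copies, which makes their counts uncertain.

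Immediate early genes stood higher in libraries 5 and 6. Of 34 members tested, 33 had a positive difference, and 29 did not overlap, all of them higher, beside 14.5% of all genes tested. Past 2-fold were 14 members, with no member lower. The median difference was 0.88. Fosb, an AP-1 subunit, was at 77.0 and 141 CPM in libraries 5 and 6, against 18.7, 7.70 and 17.1 CPM in libraries 1, 2 and 3, and at 263 and 112 CPM on day 0. Fos, its relative, was at 457 and 440 CPM in libraries 5 and 6, against 116, 126 and 156 CPM in libraries 1, 2 and 3, and at 717 and 507 CPM on day 0. Both AP-1 genes were thus lowest in libraries 1, 2 and 3, with day 0 overlapping libraries 5 and 6 or above them.

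Nr4a2 and Nr4a3, orphan nuclear receptors induced by the T cell receptor, followed another pattern. Nr4a2 was at 35.8 and 25.04 CPM in libraries 5 and 6, against 6.69, 3.77 and 4.82 CPM in libraries 1, 2 and 3, and at 5.78 and 9.53 CPM on day 0. Nr4a3 was at 88.5 and 85.5 CPM in libraries 5 and 6, against 18.7, 19.1 and 34.1 CPM in libraries 1, 2 and 3, and at 30.9 and 40.9 CPM on day 0. For both, libraries 5 and 6 stood above day 0 as well as above the other day 7 libraries. Gadd45b, a stress-induced growth arrest gene, was likewise at 130 and 117 CPM in libraries 5 and 6, against 21.8, 39.5 and 20.6 CPM in libraries 1, 2 and 3, and at 62.4 and 66.3 CPM on day 0.

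Over the early list, the mean log2(CPM + 1) was 7.50 and 7.48 in libraries 5 and 6, against 6.41, 6.48 and 6.48 in libraries 1, 2 and 3, and 7.81 and 7.49 on day 0. Some members differed little between the sets: Btg1, an antiproliferative gene, had a difference of 0.12, Dusp1, a MAP kinase phosphatase, of 0.37 and Jund of 0.07. Btg1 was at 1201 and 1135 CPM in libraries 5 and 6, against 1114, 1023 and 1082 CPM in libraries 1, 2 and 3, and at 2325 and 2089 CPM on day 0. Klf2, which was the single member with a negative difference, was at -0.11. The cAMP response element (TGACGTCA, the same on both strands) was found in the promoter window of 3 of 27 early genes (11.1%), against 3.54% of tested genes. The 3 were Dusp1, Btg2 and Ppp1r15a. The CArG box (CCWWWWWWGG, where W is A or T) was also found in 3 of 27 (11.1%), against 1.53% of tested genes. Its holders were Egr2, Dusp5 and Zfp36.

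Heat shock genes showed the same order, with 5 of 20 members past 2-fold and higher, none lower, and a median of 0.30. The 5 were Hspa1a, Hspa4l, Hspa1b, Bag3 and Hsph1. Hspa1b, the second inducible HSP70 gene, was at 774 and 973 CPM in libraries 5 and 6, against 179, 175 and 156 CPM in libraries 1, 2 and 3, and at 667 and 666 CPM on day 0. Hsph1, an HSP110 chaperone, was at 210 and 165 CPM in libraries 5 and 6, against 70.7, 110 and 89.2 CPM in libraries 1, 2 and 3, and at 290 and 196 CPM on day 0. Constitutive chaperones differed by less, Hspa8 by 0.35 and Hsp90ab1 by 0.04, and Hspd1 in the mitochondria stood at -0.29. Over the list the mean log2(CPM + 1) was 7.63 and 7.52 in libraries 5 and 6, against 6.85, 7.04 and 7.03 in libraries 1, 2 and 3, and 7.52 and 7.36 on day 0.

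Hspa1a and Hspa1b are near-identical copies, and reads from their coding sequence may have been split between them, so they are not separate evidence. The 140 bases before each start site (GRCm38.p6, RefSeq) are shown because the copies share them too: 139 of 140 positions are alike, and the one that differs is in capitals.
Hspa1a, chr17:34972157-34972296, minus strand: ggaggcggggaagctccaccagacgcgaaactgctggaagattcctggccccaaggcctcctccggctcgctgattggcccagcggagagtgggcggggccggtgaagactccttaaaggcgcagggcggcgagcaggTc
Hspa1b, chr17:34959239-34959378, minus strand: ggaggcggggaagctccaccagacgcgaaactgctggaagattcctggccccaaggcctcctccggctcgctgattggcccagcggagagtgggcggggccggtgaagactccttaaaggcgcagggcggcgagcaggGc
A heat shock element (GAA, TTC and GAA with any 2 bases between neighbours, or TTC, GAA and TTC on the other strand) was found in the promoter window of 4 of 16 list members (25%), against 0.544% of tested genes. The 4 were Hsph1, Hspd1, Hspe1 and Chordc1, of which Hsph1 alone was past 2-fold, and neither Hspa1a nor Hspa1b held a match. The search asked for an exact match of every unit, so looser heat shock elements were not counted.

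**Figure D4:**
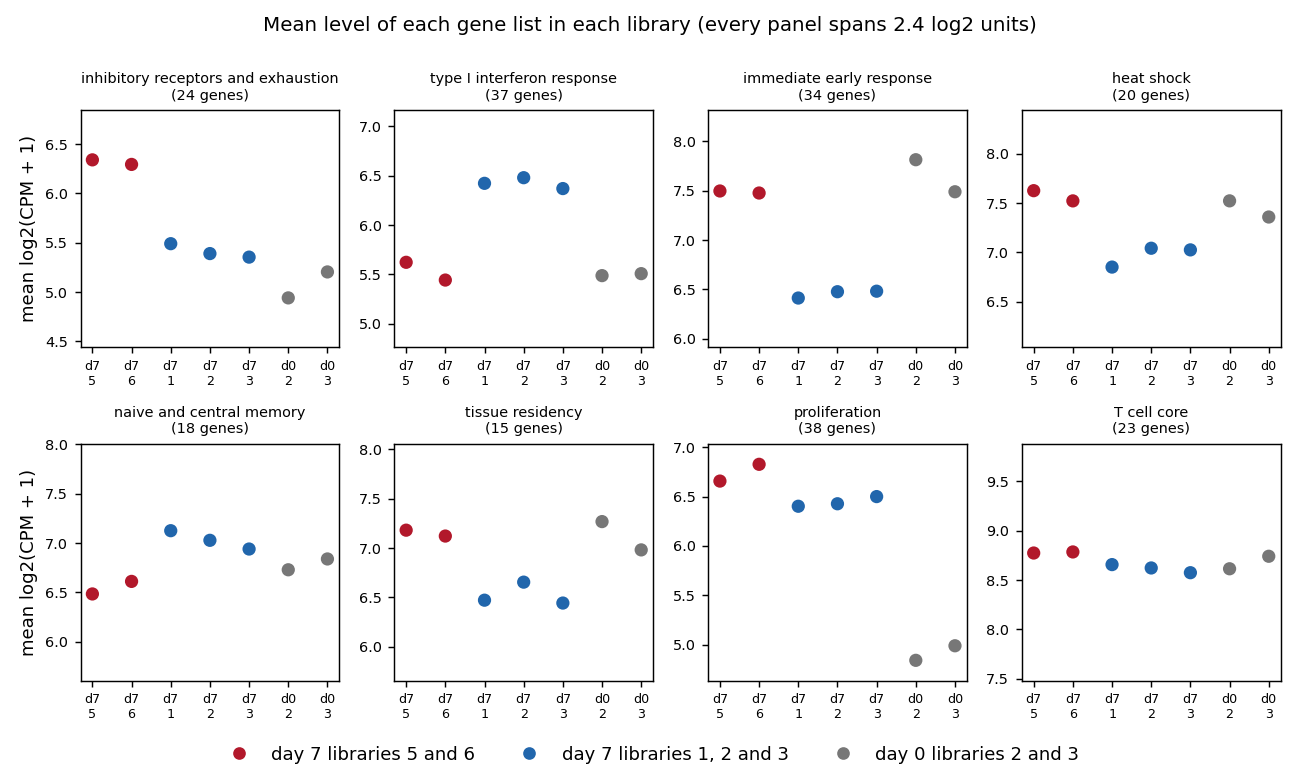
Mean log2(CPM + 1) over the tested members of 8 gene lists in each library, with the number of genes above each panel and every panel spanning the same height. Immediate early, heat shock and residency genes put libraries 5 and 6 beside day 0, as does the type I interferon list at its low end, whereas proliferation puts all 5 day 7 libraries above day 0.

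Inhibitory receptors and exhaustion factors were mixed as a list but held some of the largest differences. Of 24 members, 9 were past 2-fold and higher, none was lower past 2-fold, and the median was 0.39. Havcr2, which encodes TIM-3, was at 63.2 and 100.4 CPM in libraries 5 and 6, against 5.10, 11.6 and 0 CPM in libraries 1, 2 and 3, and at 0 and 5.74 CPM on day 0. Lag3, a receptor for MHC class II, was at 61.0 and 62.4 CPM in libraries 5 and 6, against 3.99, 10.8 and 11.3 CPM in libraries 1, 2 and 3, and at 0.0416 and 0 CPM on day 0. Tigit, a receptor for nectins, was at 113 and 126 CPM in libraries 5 and 6, against 9.61, 32.2 and 27.1 CPM in libraries 1, 2 and 3, and at 7.27 and 23.2 CPM on day 0. In these 3 genes, as in Pdcd1, all of libraries 1, 2 and 3 lay below libraries 5 and 6; for Lag3 they lay above both day 0 libraries, and for the others they overlapped day 0.

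Ctla4, an inhibitory competitor of CD28, had intermediate values in libraries 1, 2 and 3. It was at 327 and 351 CPM in libraries 5 and 6, against 128, 113 and 132 CPM in libraries 1, 2 and 3, and at 47.2 and 29.0 CPM on day 0. Tox, a transcription factor of exhausted T cells, was 0.81 higher with no overlap, whereas Eomes (0.06), Ikzf2 (0.10) and Cd274 (0.11) overlapped. Cd160 (-0.59), Btla (-0.48) and Cd38 (-0.33) were lower with no overlap. Several inhibitory receptors are also expressed by CD8 T cells, whose genes Cd8a and Cd8b1 together came to 204 and 175 CPM in libraries 5 and 6, against 16.7, 18.2 and 10.97 CPM in libraries 1, 2 and 3, and to 3.66 and 2.32 CPM on day 0. The part of CD8 T cells in the inhibitory receptor values was not tested.

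Residency genes stood higher and naive and central memory genes lower. Of 15 residency genes, 7 were past 2-fold and higher and none lower, with a median of 0.83, although Nr4a1, Rgs1 and Cd69 are also early genes. Bhlhe40, a transcription factor of tissue-resident T cells, was at 614 and 530 CPM in libraries 5 and 6, against 231, 208 and 199 CPM in libraries 1, 2 and 3, and at 558 and 419 CPM on day 0. Of 18 naive and central memory genes, 11 were lower with no overlap, beside 12.8% of all genes tested, and none was higher. The median was -0.59, and Ly6c1 and Treml2 were past 2-fold. Il7r, the interleukin 7 receptor, was at 275 and 245 CPM in libraries 5 and 6, against 470, 417 and 483 CPM in libraries 1, 2 and 3, and at 566 and 586 CPM on day 0. Il7r was thus highest on day 0, and libraries 1, 2 and 3 were the nearer to it. The naive list as a whole stood otherwise, with a mean log2(CPM + 1) of 6.73 and 6.84 on day 0, between the sets. That mean was 6.48 and 6.61 in libraries 5 and 6, and 7.12, 7.03 and 6.94 in libraries 1, 2 and 3.

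Lineage genes differed in part. Foxp3, the regulatory T cell factor, overlapped, with 69.95 and 45.8 CPM in libraries 5 and 6 and 68.1, 59.3 and 112 CPM in libraries 1, 2 and 3, beside 29.9 and 30.2 CPM on day 0. Of 21 regulatory T cell genes, 5 were higher past 2-fold (Ccr8, Il10, Nrp1, Ctla4 and Capg) and 1 was lower (Ikzf4), with a median of 0.30. Nrp1, a semaphorin coreceptor, was at 211 and 172 CPM in libraries 5 and 6, against 57.1, 51.4 and 88.3 CPM in libraries 1, 2 and 3, and at 44.9 and 31.1 CPM on day 0. The median depended on single libraries and on scarce genes: it was 0.000838 without library 3, 0.16 without library 2, 0.48 without library 1, 0.13 with a pseudocount of 5 CPM and 0.10 among genes with a mean of at least 5 CPM.

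Among 15 Th1 genes, 4 were higher past 2-fold (Havcr2, Il18r1, Tnf and Il18rap) and the median was 0.29. Il18r1, a chain of the interleukin 18 receptor, was at 465 and 417 CPM in libraries 5 and 6, against 171, 144 and 155 CPM in libraries 1, 2 and 3, and at 174 and 149 CPM on day 0. Tbx21 (T-bet), the lineage factor of Th1 cells, was 0.21 higher with no overlap, while the interleukin 12 receptor chains Il12rb1 (-0.43) and Il12rb2 (-0.67) were lower. Of 16 Th2, Th17 and follicular genes, 7 were higher past 2-fold, among them Il17a, Il17f, Il21, Bcl6, Ccr6 and Rora, and 2 lower (Il17rb and Il4), with a median of 0.63 (0.97 with no filter on low counts). Il17a, the Th17 cytokine, was at 10.1 and 13.9 CPM in libraries 5 and 6, against 0, 2.22 and 0 CPM in libraries 1, 2 and 3, and at 2.91 and 0 CPM on day 0. Il4, the Th2 cytokine, stood the other way, at 13.4 and 3.93 CPM in libraries 5 and 6, against 18.1, 27.0 and 23.1 CPM in libraries 1, 2 and 3, and at 36.8 and 30.4 CPM on day 0.

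Gzmb, which encodes granzyme B, was at 583 and 624 CPM in libraries 5 and 6, against 664.5, 507 and 640.4 CPM in libraries 1, 2 and 3, and at 436 and 315 CPM on day 0. Of 22 cytotoxic genes tested, 3 were past 2-fold and higher, Cx3cr1, Gzmk and Zeb2, beside 6.05% of all genes tested. Without the fold, 8 were higher and 2 lower with no overlap, beside 14.5% and 12.8% of all genes tested. The cytotoxic median was 0.31 (0.58 without library 3). Gzmk was at 25.4 and 52.2 CPM in libraries 5 and 6, against 4.25, 0.0794 and 7.04 CPM in libraries 1, 2 and 3, and at 0.0416 and 0.0713 CPM on day 0. Cx3cr1 was at 50.9 and 28.8 CPM in libraries 5 and 6, against 3.25, 0.0397 and 2.13 CPM in libraries 1, 2 and 3, and at 3.41 and 0 CPM on day 0. The part of CD8 T cells and macrophages in these values was not tested.

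Proliferation and glycolysis separated the days more than the sets. Over 38 proliferation genes the mean log2(CPM + 1) was 6.66 and 6.83 in libraries 5 and 6, against 6.40, 6.43 and 6.50 in libraries 1, 2 and 3, and 4.84 and 4.99 on day 0. Only Aurka, a mitotic kinase, was past 2-fold between the sets. Without the fold, 15 of the 38 were higher and 2 lower with no overlap, beside 14.5% and 12.8% of all genes tested. Top2a, a topoisomerase of dividing cells, was at 569 and 564 CPM in libraries 5 and 6, against 419, 400 and 402 CPM in libraries 1, 2 and 3, and at 132 and 104 CPM on day 0. Over 20 glycolysis genes the level was 7.03 and 7.13 in libraries 5 and 6, against 6.77, 6.55 and 6.79 in libraries 1, 2 and 3, and 6.11 and 6.16 on day 0, and Slc16a3, a lactate exporter, was the single member past 2-fold. Hk2, the inducible hexokinase, was at 31.4 and 38.0 CPM in libraries 5 and 6, against 20.9, 13.6 and 24.4 CPM in libraries 1, 2 and 3, and at 0.0416 and 0.143 CPM on day 0. Of 23 T cell core genes none was past 2-fold, and the median was 0.15. Without the fold, 9 of the core genes were higher and 2 lower with no overlap. In the glycolysis list 9 were higher and 1 lower with no overlap. The shares of all genes tested were 14.5% higher and 12.8% lower. Of 19 activation and costimulation genes 1 was past 2-fold, Slamf1, which was higher, beside 6.05% of all genes tested. Tnfrsf9, the costimulatory receptor 4-1BB, was level at 74.5 and 56.1 CPM in libraries 5 and 6 and 62.4, 57.6 and 71.8 CPM in libraries 1, 2 and 3, beside 9.81 and 12.9 CPM on day 0.

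**Figure D5:**
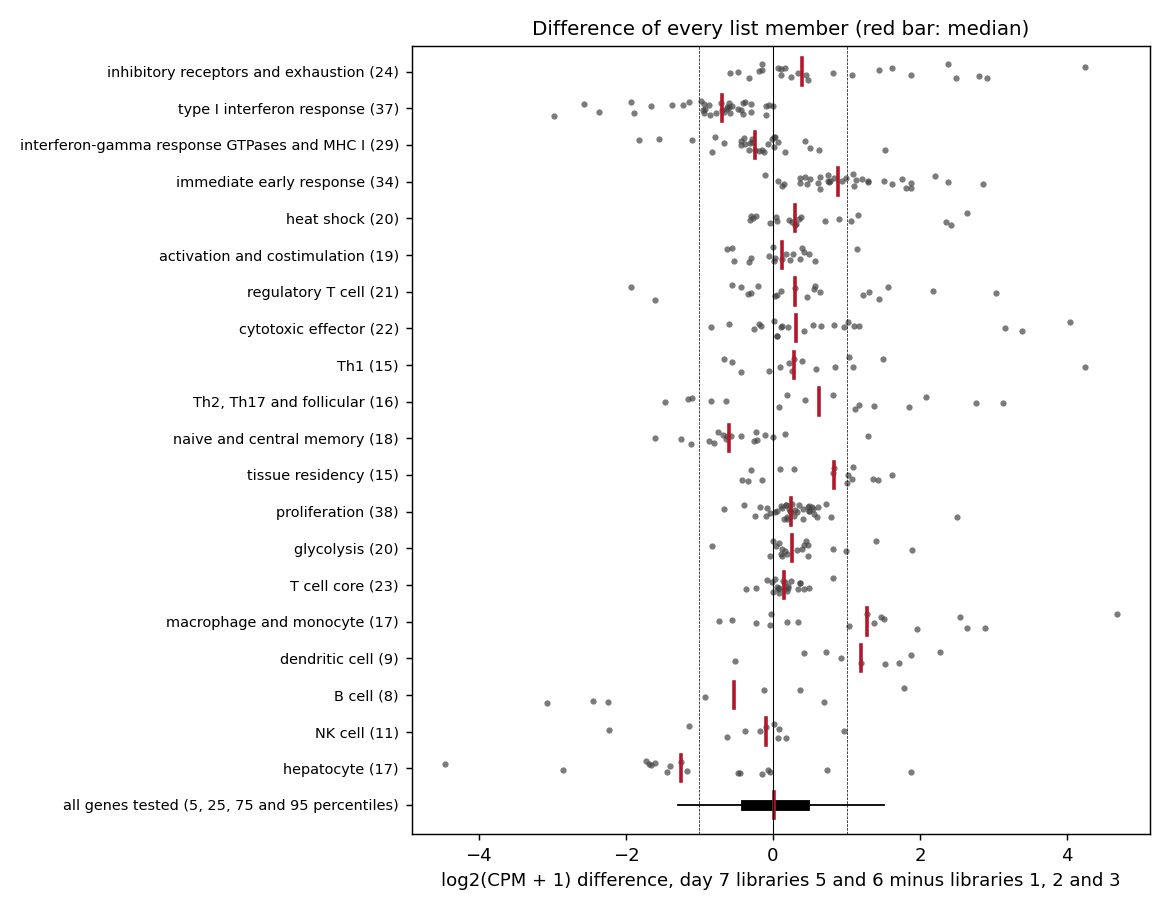
Difference in mean log2(CPM + 1), libraries 5 and 6 minus libraries 1, 2 and 3, of each tested member of 20 gene lists (points, with the median as a red bar and the number of members in brackets), above the 5, 25, 75 and 95 percentiles of all genes tested. Type I interferon and naive genes lie to the left, immediate early, residency and macrophage genes to the right, and T cell core genes near 0.

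Genes of other cells did not all go one way. Of 17 macrophage and monocyte genes tested, 6 were higher past 2-fold (Lyz2, Csf1r, Adgre1, Cd68, C1qb and Itgam) and none lower, with a median of 1.28. Csf1r, the receptor for macrophage colony-stimulating factor, was at 41.5 and 19.2 CPM in libraries 5 and 6, against 0.148, 5.16 and 7.94 CPM in libraries 1, 2 and 3, and at 0 CPM in both day 0 libraries. The sum over the 20 members in the table was 1495 and 1152 CPM in libraries 5 and 6, against 1383, 1219 and 1265 CPM in libraries 1, 2 and 3, and 1023 and 1011 CPM on day 0. This sum overlapped between the sets. Ccr2 and Ly6c2, which T cells also express, carry most of it, and their part in the overlap was not tested. The median was 0.43 without library 5 and 0.52 with a pseudocount of 5 CPM. Of 3 neutrophil genes tested, S100a9 and Ngp were higher past 2-fold, both below 5 CPM in every day 7 library, and the sum over 8 neutrophil genes overlapped, at 159 and 95.4 CPM in libraries 5 and 6, against 156, 139 and 168 CPM in libraries 1, 2 and 3, and 255 and 207 CPM on day 0.

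Antigen-presenting genes were uneven within libraries 5 and 6. Cd74, the MHC class II invariant chain, was at 127 and 78.0 CPM in libraries 5 and 6, against 25.4, 40.3 and 18.1 CPM in libraries 1, 2 and 3, and at 8.73 and 5.21 CPM on day 0. Itgax, which encodes CD11c, was at 57.0 and 13.2 CPM in libraries 5 and 6, against 11.3, 2.54 and 3.76 CPM in libraries 1, 2 and 3. H2-Eb1 was at 58.2 and 8.90 CPM in libraries 5 and 6, against 12.01, 20.6 and 3.16 CPM in libraries 1, 2 and 3, so the sets overlapped. Lyz2, Csf1r, Itgax and H2-Eb1 were each higher in library 5 than in library 6.

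Hepatocyte genes stood lower in libraries 5 and 6, with 5 of 17 past 2-fold (Alb, Mup3, Hpx, Apoa2 and Hp) and Apoc1 higher, and a median of -1.26. The median was -0.14 among genes with a mean of at least 5 CPM and -0.44 with a pseudocount of 5 CPM. Beside Alb, Mup3, a major urinary protein, was at 0 CPM in both libraries 5 and 6, against 7.32, 2.54 and 11.9 CPM in libraries 1, 2 and 3, and at 0 CPM in both day 0 libraries. Summed over 24 members the list came to 117 and 128 CPM in libraries 5 and 6, against 180, 202 and 197 CPM in libraries 1, 2 and 3, and to 90.1 and 115 CPM on day 0, of which Ass1, also expressed by T cells, gave a large share. Of 8 B cell genes tested, 3 were lower, among them Ms4a1 and Pax5, and Cd22 was higher, all below 10 CPM in every day 7 library. Ms4a1, which encodes CD20, was at 0 and 0.0904 CPM in libraries 5 and 6, against 8.06, 7.90 and 7.51 CPM in libraries 1, 2 and 3.

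Of 11 NK cell genes 1 was past 2-fold, and lower, beside 3.74% of all genes tested. This gene, Klrb1c, encodes NK1.1 and is also found on NKT cells. It was at 160 and 177 CPM in libraries 5 and 6, against 404, 372 and 341 CPM in libraries 1, 2 and 3, and at 632 and 713 CPM on day 0. Klrd1 (0.01) and Klrc1 (-0.10) overlapped. Of 7 endothelial genes tested, Kdr, Oit3 and Cdh5 were higher past 2-fold and below 6 CPM in all libraries, and Pecam1 was lower with no overlap (-0.62). The endothelial sum overlapped, at 124 and 85.0 CPM in libraries 5 and 6, against 173, 112 and 134 CPM in libraries 1, 2 and 3, and 69.6 and 109 CPM on day 0. The part of macrophage, hepatocyte, B cell, NK or CD8 T cell RNA in the differences of the T cell state genes was not tested.

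By size of difference, the 12 leading higher protein-coding genes with at least 20 CPM in both libraries 5 and 6 differed by 2.93 to 4.68, and the 12 leading lower ones by -4.46 to -1.76. The higher ones included, beside genes already given, Ifitm1 and Ifitm2, Cdkn1a, Galnt3 and Rgs16. Ifitm1, an interferon-induced membrane protein, was at 26.5 and 25.7 CPM in libraries 5 and 6, against 8.50, 0 and 0 CPM in libraries 1, 2 and 3, and at 3.82 and 0 CPM on day 0, opposite to the interferon list. Rgs16, a regulator of G protein signalling, was at 138 and 176 CPM in libraries 5 and 6, against 24.5, 12.2 and 24.8 CPM in libraries 1, 2 and 3, and at 25.1 and 9.77 CPM on day 0. Cdkn1a, which encodes the cell cycle inhibitor p21, was at 33.8 and 37.7 CPM in libraries 5 and 6, against 4.88, 0.0794 and 4.10 CPM in libraries 1, 2 and 3, and at 15.1 and 0.0357 CPM on day 0. The day 0 libraries parted for Cdkn1a, so it has no single reference level.

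The lower ones beside Alb, Ifit3, Rsad2, Ifit1 and Iigp1 included Mrpl41, Obi1, Septin8, Tbccd1, Dtx4 and Arhgap35. In these 6 genes library 6 was lower than library 5, and the differences rested largely on library 6. Without library 6 they were -1.02, -0.94, -0.83, -1.21, -0.93 and -0.75 in the same order. Obi1, Septin8, Dtx4 and Arhgap35 thus fell short of 2-fold in library 5 alone. Dtx4, a ubiquitin ligase of the Deltex family, was at 16.4 and 2.98 CPM in libraries 5 and 6, against 23.0, 42.8 and 34.0 CPM in libraries 1, 2 and 3, and at 96.4 and 72.7 CPM on day 0.

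The labelled comparison, day 7 against day 0, was the one comparison tested. Because the labels do not say which tissue was sampled as tumour on day 0, tissue and time cannot be told apart in it. In edgeR's quasi-likelihood test with Benjamini-Hochberg adjustment, 138 genes rose (1.07% of 12929 tested) and 61 fell (0.472%) over 5 day 7 and 2 day 0 libraries. Without libraries 5 and 6, 118 rose (0.975% of 12106) and 107 fell (0.884%). The 2 fits shared 139 called genes, 60 were called with all libraries alone and 86 without libraries 5 and 6 alone. These fits share the day 0 libraries and 3 day 7 libraries, and the second leaves out libraries because of their values, so its calls show only how the labelled test depends on them.

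The early list shows that dependence. With all libraries 8 of its 34 genes fell and none rose, and without libraries 5 and 6 21 fell and none rose. Fos was at a log2 change of -1.24 ± 0.70 (SE, n = 5 and 2) with an edgeR adjusted p of 0.636 with all libraries, and at -2.22 without libraries 5 and 6. Btg1 fell with all libraries, by 0.99 ± 0.09 on the log2 scale with an edgeR adjusted p of 5.11e-07, and was lower in all 5 day 7 libraries than in both day 0 libraries. In the heat shock list 1 gene, Dnaja1, fell with all libraries and 7 fell without libraries 5 and 6. Hspa1a had a log2 change of -0.20 with all libraries and of -1.81 without them.

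In the type I interferon list 3 of 37 genes, Isg20, Ifi27l2a and Ifih1, rose with all libraries, and 9 rose without libraries 5 and 6, with none falling in either fit. Ifit3 had a log2 change of 1.33 ± 1.04 (SE) and an edgeR adjusted p of 0.785 over 5 and 2 libraries, and a change of 1.91 without libraries 5 and 6. Ifih1, the RNA sensor MDA5, rose by 1.46 ± 0.32 with an edgeR adjusted p of 0.0147, and was higher in all 5 day 7 libraries than on day 0. In the inhibitory receptor list 2 genes rose and 1 fell with all libraries, and 1 rose and 2 fell without libraries 5 and 6. Pdcd1 had a change of 3.54 ± 1.60 with an edgeR adjusted p of 0.572 with all libraries, and of 1.94 without them. Lag3, listed at 0.0416 and 0 CPM on day 0, passed at an edgeR adjusted p of 0.0458 with all libraries and not without libraries 5 and 6. Ctla4 had a change of 2.46 ± 0.70 (SE) with an edgeR adjusted p of 0.284 with all libraries, and of 1.69 without libraries 5 and 6, being higher in all 5 day 7 libraries than on day 0.

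Proliferation genes depended less on the split. With all libraries 27 of 38 rose and without libraries 5 and 6 23 of 38 rose, with none falling in either fit. Top2a rose by 1.997 ± 0.18 (SE) on the log2 scale with an edgeR adjusted p of 4.24e-07, being higher in all 5 day 7 libraries than on day 0. In the glycolysis list 7 of 20 rose with all libraries and 6 without, and in the T cell core list none of 23 passed in either fit. Cd8a, Lyz2 and Alb did not pass in either fit.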

How the data were processed

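RNA of sorted mouse CD4 T cells was sequenced, 5 libraries of day 7 and 2 of day 0. The deposited table holds unnormalized whole-number counts for each gene. Tools, per the submitters' processing notes, were featureCounts 1.5.0-p3, HISAT2 2.0.5 and CASAVA 1.8; their settings, the build, the annotation and strand handling are not given there, so overlapping, antisense and near-identical genes are uncertain. Columns were assigned to a day by name and to no single sample.

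Counts were scaled to CPM with TMM factors. Day 7 was tested against day 0 with edgeR 4.0.16 (filterByExpr, glmQLFit, glmQLFTest) in R 4.3.3, Benjamini-Hochberg adjustment and a threshold of 0.05. Each SE was the size of the log2 change divided by the square root of the test's F statistic, and was not estimated separately. Nothing says that libraries came from separate mice, so p-values measure the spread between these libraries, which may be technical. The split of libraries 5 and 6 from 1, 2 and 3 was described as log2(CPM + 1) differences with no test.

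The split, the gene lists and the tests were chosen with earlier results of these data known. The rule named 6 markers, Cd4 and Cd3e, the 12 largest differences in each direction among protein-coding genes with at least 20 CPM in every library of the higher set (predicted genes and receptor segments left out), and up to 6 members of a list by size of difference. Other genes named were chosen after their values were seen. Promoters are from RefSeq, GRCm38.p6, matched by Entrez gene number for 10295 of the tested genes. Alternatives were RLE factors, library sizes alone, no filter, a mean of at least 5 CPM, a pseudocount of 5, a fold of 4, DESeq2 1.42.0, limma-voom (limma 3.58.1) and leaving out each library. A few genes that the rule or the lists select are not reported here.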

Additional observations from a re-analysis of the deposited data

How the results depend on the processing

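The count of genes changed between day 7 and day 0 was 199 in all, 138 higher and 61 lower. It was 375 (249 higher and 126 lower) with no filter on low counts, 830 (638 higher and 192 lower) with DESeq2, and 95 with limma-voom, of which 31 were higher. Without day 7 libraries 5 and 6 the lower count was 107. Leaving out 1 library at a time gave from 127 to 189 genes in all, from 87 to 153 higher and from 30 to 59 lower. The total of 127 came without day 7 library 5, which also gave 87 higher and 40 lower; without day 0 libraries 2 and 3 in turn the lower count was 30 and 38. The cause was not tested. RLE factors, library sizes alone and a mean of at least 5 CPM kept each count within 1.5 times.

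Genes higher in libraries 5 and 6 numbered 782 and genes lower 483. With a mean of at least 5 CPM, which admits fewer genes, they were 384 and 317. A pseudocount of 5 CPM, which shrinks the differences of genes with low CPM, gave 345 and 214. Many of the calls thus lay in genes with low CPM. A fold of 4, a stricter threshold, gave 284 and 141. Leaving out 1 library gave from 986 to 1512 higher and from 724 to 1045 lower, more than with all, since fewer libraries can overlap; the higher count moved by over 1.5 times without library 5 or 6 (1512 and 1418), and the lower count without library 5, 6, 1 or 3 (1045, 797, 774 and 747).

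Of 240 list medians under the alternatives, 50 moved by more than the spread. The sign changed in 5 lists: Kupffer, B cell, endothelial, activation and costimulation, and ILC2 and ILC3. Of 280 values of named genes, 21 moved, and the sign changed for Cd3e alone, to -0.04 without library 5. Lists of other cells rest on few counts in each library, and 3 counts correspond to 0.106 to 0.137 CPM. No paired analysis was possible because the columns cannot be tied to the replicate numbers of the sample titles.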
